A study of Cricetulus griseus with 6 samples.

Results

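The methylthioadenosine (MTA) salvage pathway was examined in CHO-K1, an immortalised Chinese hamster ovary line, grown with or without putrescine. Its members were taken by name as Mtap, Mri1, Apip, Enoph1, Adi1 and Got1. All 6 genes were measured, each by 1 probe set that carried that symbol alone, among 14899 named genes and 29700 probe sets on the array. The samples were 3 suspension cultures in serum-free F10-based medium with 1 mg/l putrescine and 3 in the same medium lacking it. All 6 were seeded at 200000 cells/ml and harvested on day 3. Per the series' description, the depleted medium also held no other polyamine and no ornithine. The labels call the flasks of a group biological triplicates. A single established line was used, and each array measured RNA extracted from 4000000 cells of a flask, so a change in every cell and a change in the share of cells in some state cannot be told apart.

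MTA is the sulfur-containing by-product left when spermidine synthase and spermine synthase move an aminopropyl group from decarboxylated S-adenosylmethionine (SAM) onto putrescine or spermidine. Mammalian cells recycle it: the adenine returns to the nucleotide pool, and the methylthio group and ribose carbons are rebuilt into methionine. MTA that accumulates inhibits both aminopropyl transfer and the arginine methyltransferase PRMT5, and loss of MTAP is common in human tumours. The salvage route thus ties polyamine synthesis to the supply of methionine and SAM.

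Without putrescine the transcripts of 3 of the 6 salvage enzymes rose: Apip 1.71-fold, Mtap 1.55-fold and Got1 1.52-fold. Adi1, Enoph1 and Mri1 did not pass the test, with log2 differences of 0.32, 0.19 and -0.14. The genes that rose act at the first step, at a middle step and at the closing transamination, and the genes that did not pass lie between them. None of the 6 fell in limma, and none was lower at an unadjusted p under 0.05 (0 of 6, against 4 higher). The array's share at that unadjusted threshold was not computed, for this count or for those of the lists below. Over the whole array, 13.2% of the probe sets rose and 11.2% fell at the same threshold of 0.05 on the Benjamini-Hochberg adjusted p. All of the members lay above the array's median level, and among the 14849 probe sets above it 23.3% rose and 19.8% fell. The median log2 difference of the members was 0.46, beside 0.007 for all probe sets. The members were chosen with earlier results of these data known, so their counts and median beside the array's are a description only.

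The arrays of each group resembled one another more than those of the other group, with Pearson's r across probe sets of 0.9956 to 0.9962 within groups and 0.9856 to 0.9878 between them. Levels were also read on 2 marker lists, which do not establish the cell identity on their own. Not measured were 1 of the 7 genes of the first list and 8 of the 18 of the second. The 6 measured genes typical of mesenchymal or fibroblast-like cultured cells, such as the intermediate filament gene Vim, had mean log2 intensities from 8.50 to 12.62. The 10 measured markers of other tissues, such as the blood gene Ptprc and the liver gene Alb, lay between 2.75 and 4.72 in both groups. None of those 10 passed the test in limma, and none had an unadjusted p under 0.05. Of the 6 mesenchymal genes, 3 rose (Lgals1, Tpm1 and Cd44) and 3 did not pass. Their part in the members' differences was not tested.

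**Figure D1:**
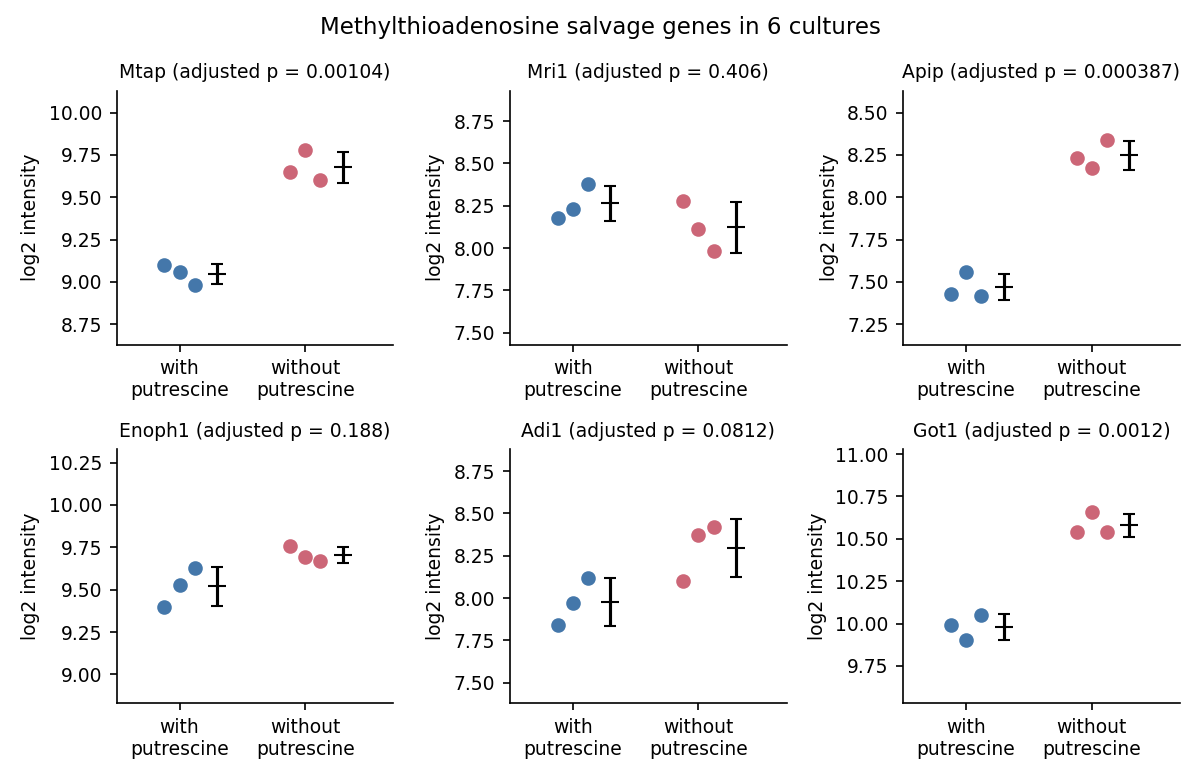
Log2 intensity of the 6 salvage genes in each culture, with putrescine (blue) and without (red), 1 point a culture, and the mean ± SD (n = 3) in black. Every panel spans the same height on the log2 scale. The groups stand well apart for Mtap, Apip and Got1, are separated by 0.04 for Enoph1, and overlap for Mri1 and Adi1.

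Mtap encodes MTA phosphorylase, which opens the pathway by splitting MTA into adenine and methylthioribose phosphate. Its log2 intensity (probe set 18001606) was 9.10, 9.06 and 8.98 in the cultures with putrescine and 9.65, 9.78 and 9.60 in those without. The groups did not overlap, and the lowest culture without putrescine stood 0.50 above the highest with it, while the cultures of a group spread over 0.12 and 0.18. The mean moved from 9.05 ± 0.06 to 9.68 ± 0.09 (SD, n = 3). The log2 difference was 0.63 (SE 0.09, 95% interval 0.43 to 0.83, limma adjusted p = 0.00104). Of all probe sets, 95.1% had a lower difference.

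Mri1 encodes methylthioribose phosphate isomerase, which converts the aldose sugar into the ketose methylthioribulose phosphate. Its log2 intensity (probe set 18055487) was 8.18, 8.23 and 8.38 with putrescine and 8.28, 8.11 and 7.98 without. The groups overlapped, and the replicate spread (0.20 and 0.30) was wider than the shift between the means. The mean was 8.26 ± 0.10 with and 8.12 ± 0.15 without putrescine (SD, n = 3), a log2 difference of -0.14 (SE 0.10, limma adjusted p = 0.406). The 95% interval ran from -0.38 to 0.10, so a rise of more than 1.07-fold lay outside it. The size of the difference rested on single cultures: it was -0.07 without replicate 3 of the depleted group, -0.08 without replicate 3 of the controls and -0.22 without replicate 1 of the depleted group. It was the only member with a mean below that of the control cultures.

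Apip encodes the dehydratase that removes water from methylthioribulose phosphate. The human protein was named for binding the apoptosome component APAF1. Its log2 intensity (probe set 18092173) was 7.43, 7.56 and 7.42 with putrescine and 8.23, 8.17 and 8.34 without. It had the widest gap between groups of the 6 members, 0.61, against spreads of 0.14 and 0.17 within them. The mean moved from 7.47 ± 0.08 to 8.25 ± 0.09 (SD, n = 3). The log2 difference of 0.78 (SE 0.09, 95% interval 0.58 to 0.98) had a limma adjusted p of 0.000387, and 97.1% of all probe sets had a lower difference.

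Enoph1 encodes a bifunctional enolase-phosphatase that turns the dehydrated sugar phosphate into an acireductone. Its log2 intensity (probe set 17985811) was 9.40, 9.53 and 9.63 with putrescine and 9.76, 9.69 and 9.67 without. The groups were separate by only 0.04, less than the spread of the control cultures (0.23). Groups did not overlap with the cultures without putrescine on top in 19.8% of all probe sets and in 32.0% of those above the median level. The log2 difference was 0.19 (SE 0.09, 95% interval -0.02 to 0.39) and did not pass the test (limma adjusted p = 0.188).

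Adi1 encodes acireductone dioxygenase, a metal-dependent enzyme that makes the keto acid of methionine and releases formate. Its log2 intensity (probe set 17994955) was 7.84, 7.97 and 8.12 with putrescine and 8.10, 8.37 and 8.42 without. The groups overlapped by 0.02, between replicate 1 without putrescine at 8.10 and replicate 3 with putrescine at 8.12. The log2 difference was 0.32 (SE 0.12, 95% interval 0.06 to 0.58), with an unadjusted p of 0.0228 and an adjusted p of 0.0812 in limma. Leaving out replicate 1 without putrescine gave a difference of 0.42 and a limma adjusted p of 0.0357. Leaving out replicate 3 with putrescine gave 0.39 and a limma adjusted p of 0.0654. Over all 10 alternatives the adjusted p lay between 0.0352 and 0.221. Adi1 had the largest SE of the members.

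Got1 encodes the cytosolic aspartate aminotransferase. It is one of several aminotransferases able to complete the pathway by converting the keto acid into methionine, and it is better known for the malate-aspartate shuttle and aspartate synthesis. Its log2 intensity (probe set 18089746) was 9.99, 9.90 and 10.05 with putrescine and 10.54, 10.66 and 10.54 without. The groups were 0.49 apart, with spreads of 0.15 and 0.12 within them. The mean moved from 9.98 ± 0.08 to 10.58 ± 0.07 (SD, n = 3), a log2 difference of 0.60 (SE 0.09, 95% interval 0.40 to 0.80, limma adjusted p = 0.0012).

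**Figure D2:**
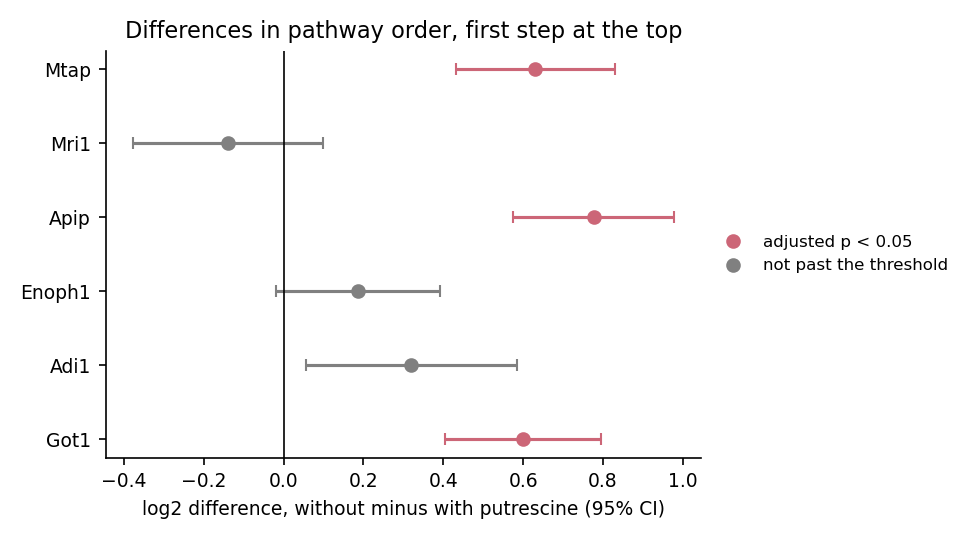
Log2 difference (horizontal axis, without minus with putrescine) of each salvage gene, with its 95% interval from limma, in the order of the reactions from Mtap at the top to Got1. Genes past the adjusted threshold are red and the others grey. The intervals of Mtap, Apip and Got1 start at or above 0.40, while those of Mri1 and Enoph1 include 0.

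The members' shifts were also set against one another. For each of the 15 pairs of members the log2 ratio was taken within each array, which cancels any scaling of that array, and compared between the groups with a two-sided exact permutation test. With 3 cultures against 3 the smallest p this test can give is 0.10, so none could pass 0.05. The ratio did not overlap between the groups in 9 of the 15 pairs, each with exact p = 0.10 (0.167 after adjustment over the 15 pairs). The pairs share members, so the 9 are not independent of one another or of the single-gene differences. The share of non-overlapping ratios among other gene pairs was not computed, so this count has no background beside it.

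All 5 pairs that hold Mri1 were among those 9. The Mri1 to Apip log2 ratio, between enzymes of consecutive steps, was 0.75, 0.67 and 0.96 with putrescine and 0.05, -0.06 and -0.36 without. Its mean fell by 0.92 on the log2 scale, the largest shift of any pair. The Mtap to Mri1 log2 ratio, across the first 2 steps, went from 0.78 ± 0.17 to 1.55 ± 0.16 (SD, n = 3), a rise of 0.77. In each of the 5 pairs the ratio shifted against Mri1. That direction was fixed by its being the only member below the controls, so it restates the single-gene differences.

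Among Mtap, Apip and Got1 the ratios overlapped between the groups in all of the 3 pairs. The Mtap to Got1 log2 ratio was -0.93 ± 0.12 with and -0.90 ± 0.03 without putrescine (SD, n = 3; exact permutation p = 0.80). The Mtap to Apip ratio moved by -0.15 (exact permutation p = 0.30) and the Apip to Got1 ratio by 0.18 (exact permutation p = 0.20). These p-values do not show that the 3 genes moved alike, since the test could not have passed at this size.

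The members did not all rank the control cultures alike. Mri1, Enoph1 and Adi1 were each lowest in replicate 1 and highest in replicate 3 with putrescine. Mtap had the reverse order, Apip was highest in replicate 2 and Got1 was lowest in replicate 2. Averaged over the 6 members, the control cultures lay at -0.05, -0.001 and 0.05 relative to the control mean. The cultures without putrescine lay at 0.38, 0.42 and 0.38 on the same log2 scale, which is a description of these arrays with no test.

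Reactions that lead to MTA were read at the putrescine and aminopropyl transfer genes, of which 3 of 4 were measured. Odc1, which encodes the decarboxylase that makes putrescine, rose by 1.28 on the log2 scale (SE 0.08), and its groups did not overlap. The genes of the MTA-releasing enzymes themselves did not pass the test. Srm, the spermidine synthase gene, had a difference of 0.05, and Sms, the spermine synthase gene, had 0.29 (limma adjusted p = 0.0692). Sms passed in 3 of 10 alternatives: over probe sets above the median level, with an intensity trend in the variance, and with replicate 1 of the depleted cultures left out (adjusted p between 0.0154 and 0.187).

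Other aminotransferases that can act on keto acids of this kind or are relatives of Got1 were also read. Of 7 measured aminotransferase genes, 2 fell, 0 rose and 5 did not pass, and 1 was higher at an unadjusted p under 0.05 in limma. Of the 5 that did not pass, Got2, Gpt and Kyat3 had 0.24, 0.19 and 0.17, and Bcat1 and Tat had -0.13 and -0.05. For 1 probe set per gene, 14.2% of all 14899 named genes fell and 15.8% rose. Among probe sets above the median level 19.8% fell and 23.3% rose. The median log2 difference of the 7 genes was -0.05, the value of Tat, whose level was only 3.20 with putrescine.

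Gpt2, the mitochondrial alanine aminotransferase gene, had log2 intensities of 8.13, 8.18 and 8.41 with putrescine and 6.84, 6.80 and 6.68 without. It was 2.76-fold lower (log2 difference -1.47, SE 0.10, limma adjusted p = 4.71e-05), and its second probe set fell by 0.54. Kyat1 encodes glutamine transaminase K, which accepts the keto acid of methionine as a substrate. Its log2 intensities were 7.27, 7.35 and 7.53 with and 6.35, 6.57 and 6.32 without putrescine, 1.96-fold lower (log2 difference -0.97, SE 0.11, limma adjusted p = 0.000335). The groups of Gpt2 and Kyat1 were far apart relative to their spread.

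Il4i1, listed with them but encoding a secreted amino acid oxidase and left out of that count, fell by 0.77 from a low level of 5.28 ± 0.14 (SD, n = 3). Kyat3, a relative of Kyat1, had 0.17, and Got2, the mitochondrial counterpart of Got1, had 0.24 (limma adjusted p = 0.0721). Got2 passed in 2 of 10 alternatives, over probe sets above the median level and with an intensity trend (adjusted p 0.00865 to 0.19). Tat, a liver aminotransferase gene, stayed within the range of the other-tissue markers, at 3.20 with and 3.15 without putrescine.

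**Figure D3:**
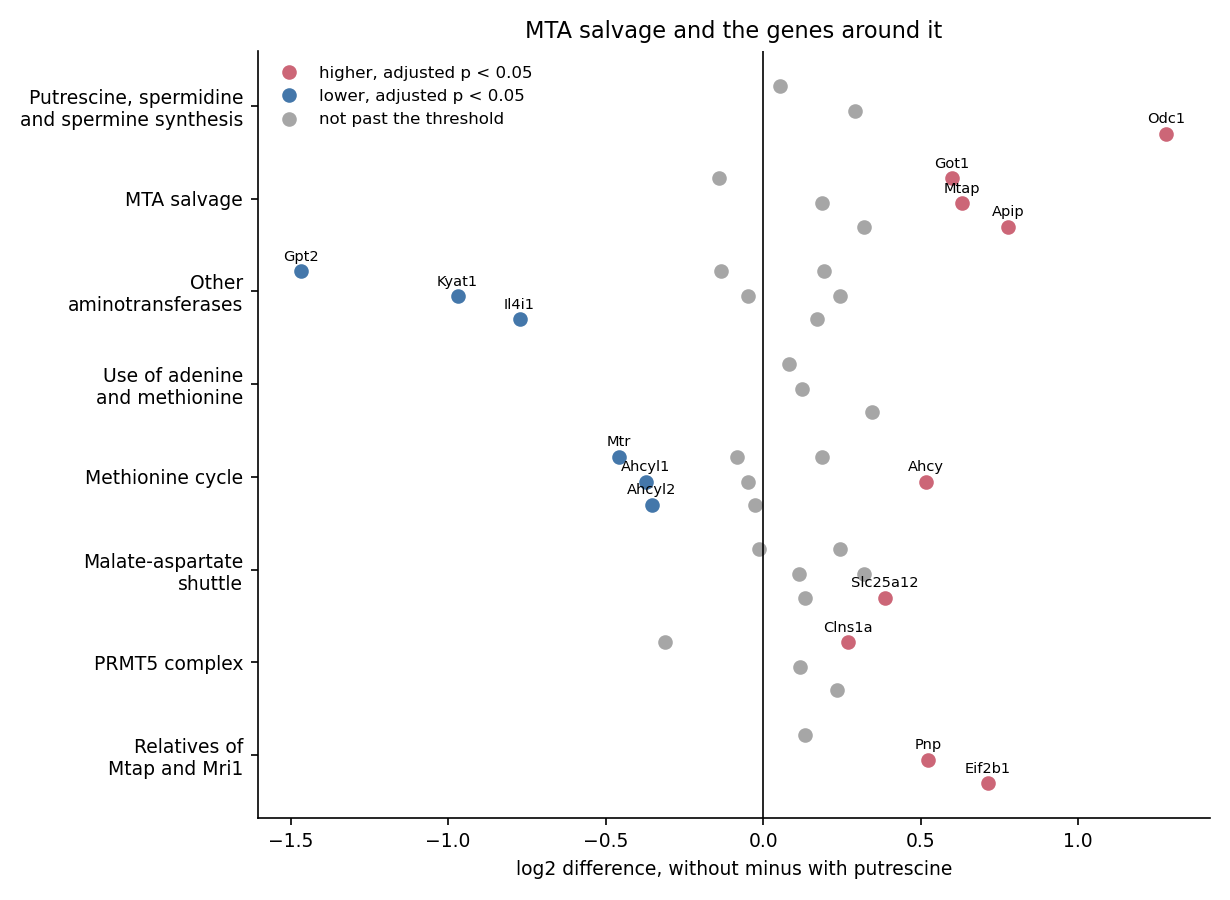
Log2 difference (horizontal axis, without minus with putrescine) of each measured gene, 1 point a gene, for the salvage pathway and 7 lists of genes around it. Il4i1 is drawn with the aminotransferases, and Got2 both there and with the malate-aspartate shuttle. Vertical offsets within a list only separate the points. Red points rose, blue points fell and grey points did not pass the test. The 3 genes of the aminotransferase list that passed lie below 0, and Mtap, Apip and Got1 lie at 0.60 or above.

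The products of salvage are adenine and methionine, and the genes that take them up did not pass the test. Of 3 measured, 0 rose and 0 fell in limma, and 1 was higher at an unadjusted p under 0.05. Aprt, which returns adenine to AMP, had a log2 difference of 0.08 (SE 0.09). Mat2a, which makes SAM from methionine outside the liver, had log2 intensities of 10.09 ± 0.26 with and 10.44 ± 0.09 without putrescine (SD, n = 3; difference 0.35, limma adjusted p = 0.0974). Replicate 1 with putrescine, at 9.79, stood below the other controls at 10.27 and 10.21, and without it the difference was 0.20. Mat2a passed over probe sets above the median level and with an intensity trend, but in no other alternative (adjusted p 0.0302 to 0.236). Mat1a, the liver form, was at 3.20 with putrescine, within the range of the other-tissue markers.

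The methionine cycle is the other route that regenerates methionine. Its list also held relatives of a cycle gene and the transsulfuration genes, so its counts do not describe that route alone. Of its 8 measured genes 1 rose, 3 fell and 4 did not pass, with a median log2 difference of -0.07. These shares rest on few genes, beside 15.8% that rose and 14.2% that fell among all named genes. Methionine synthase, Mtr, fell by 0.46. Ahcy, which hydrolyses S-adenosylhomocysteine, rose by 0.52, while its relatives Ahcyl1 and Ahcyl2 fell by 0.37 and 0.35. The call of Ahcyl2 was lost in 6 of 10 alternatives (adjusted p 0.00805 to 0.101), namely with the replicate number as a block and when any 1 culture other than replicate 1 of the control group was left out. The betaine route gene Bhmt and the transsulfuration genes Cbs and Cth were at 4.25 or lower and did not pass.

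Got1 also serves the malate-aspartate shuttle, which carries reducing equivalents into mitochondria. Of the 6 shuttle genes other than Got1, all measured, 1 rose, 0 fell and 5 did not pass in limma. At an unadjusted p under 0.05 in limma, 3 were higher and 0 lower. Among all named genes 15.8% rose and 14.2% fell, so the 1 call is near that share. Got2 is counted both here and among the aminotransferases. The median log2 difference of the 6 genes was 0.19. Slc25a12, an aspartate-glutamate carrier gene, rose by 0.39 (SE 0.08), from 8.99 ± 0.07 to 9.38 ± 0.05 (SD, n = 3; limma adjusted p = 0.00898). Its paralogue Slc25a13 had -0.01. Mdh2 and Mdh1, the mitochondrial and cytosolic malate dehydrogenase genes, had 0.32 and 0.13. Mdh2 (limma adjusted p = 0.059) passed in 3 of 10 alternatives: over probe sets above the median level, with an intensity trend, and without with-putrescine replicate 1 (0.0122 to 0.18).

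MTA inhibits the PRMT5 complex, and 4 of its 5 listed genes were measured. Clns1a, a subunit that presents Sm proteins, rose by 0.27 (limma adjusted p = 0.0429), and the remaining 3 did not pass. That call held in 2 of 10 alternatives, over probe sets above the median level and with an intensity trend. It was lost after quantile normalization, with the replicate block and with any 1 of the 6 cultures left out (adjusted p 0.009 to 0.124). Prmt5 itself had a log2 difference of 0.23 (SE 0.08, limma adjusted p = 0.0722), its partner Wdr77 had 0.12 and the histone-linked cofactor gene Coprs had -0.31. Prmt5 passed in 2 of 10 alternatives (limma adjusted p 0.00825 to 0.188) and Coprs, lower, in 3 (0.0266 to 0.2). Wdr77 passed in 0. Beside the 1 of 4 genes that rose here, 15.8% of all named genes rose and 14.2% fell.

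The relatives of the first enzymes were read as well. Pnp encodes purine nucleoside phosphorylase, from the same enzyme family as MTAP. It rose by 0.52 (SE 0.09), with log2 intensities of 9.50, 9.44 and 9.46 with and 9.89, 10.08 and 10.00 without putrescine. Eif2b1 encodes the alpha subunit of the translation factor eIF2B, to which MRI1 is related in sequence. Its intensities were 8.15, 8.16 and 8.05 with and 8.85, 8.76 and 8.89 without putrescine. It rose by 0.71 (SE 0.08, limma adjusted p = 0.00044), whereas Eif2b4, the delta subunit gene, had 0.13. The groups did not overlap for any of these 3 genes, though for Eif2b4 the gap was only 0.02. Among probe sets above the median level, 32.0% did not overlap with the cultures without putrescine on top, and 23.3% rose.

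Of the apoptosome genes, listed because APIP binds APAF1, only Diablo and Xiap had a probe set used here. Xiap, a caspase inhibitor gene, fell by 0.46 (limma adjusted p = 0.0331), and Diablo, which antagonises it, had 0.10. Its call was lost when replicate 1 or replicate 2 of either group was left out (between 0.00677 and 0.109 over the alternatives).

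The genes whose values over the 6 arrays lay nearest to each riser were found by the root mean square distance of log2 values centred on each gene's mean. Nearest to Apip were Usp1, a deubiquitinase gene of DNA repair (distance 0.019), and the co-chaperone gene Chordc1 (0.033). Nearest to Mtap were Rngtt, the mRNA capping enzyme gene (0.035), and the ribosome assembly gene Grwd1 (0.042). Nearest to Got1 were Rangap1, a nuclear transport gene (0.028), and CUNH5orf15 (0.031). With 6 arrays in 2 groups, this likeness mostly restates that these genes rose by a similar amount, from 0.58 to 0.76 on the log2 scale.

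**Figure D4:**
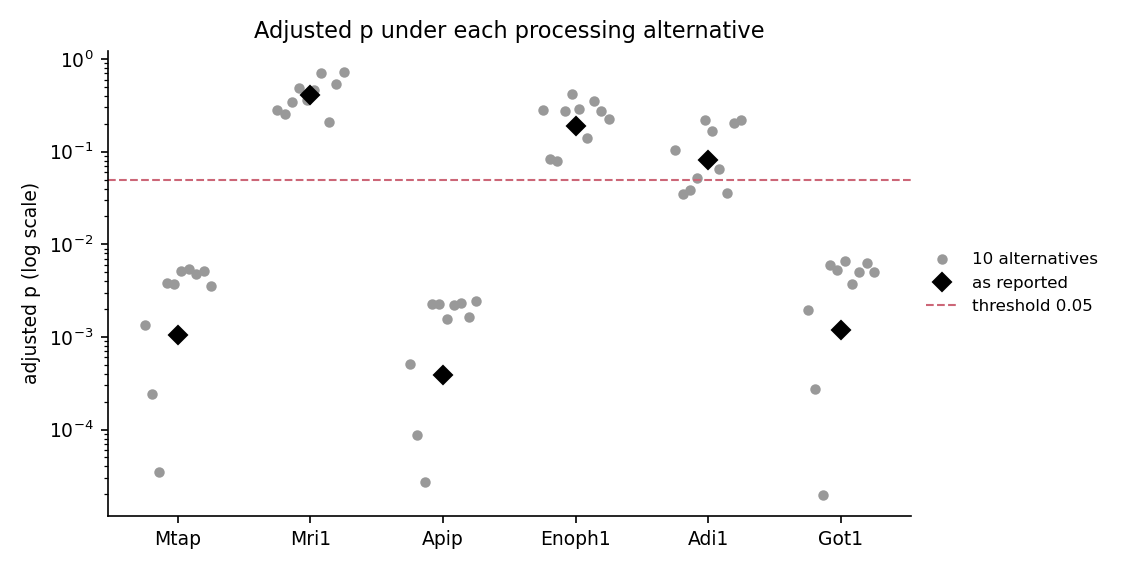
Adjusted p (vertical log axis) of each salvage gene as reported (black diamond) and under 10 processing alternatives (grey points), with the threshold of 0.05 as a dashed line. Mtap, Apip and Got1 lie below the line in every alternative run, Mri1 and Enoph1 above it in every one, and Adi1 falls on both sides.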

How the data were processed

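RNA from 6 CHO-K1 cultures, 3 per group, was hybridised to Affymetrix whole-transcript arrays, from 300 ng of total RNA per the labels' protocols. The authors deposited 1 value per probe set and array, read here as log2 intensity. Per the submitters' processing notes they used Transcriptome Analysis Console. Its version, its settings and the log base stand in none of the sources used here. Array medians of 4.92 to 4.98 show that the arrays were on 1 scale, so a change in total RNA per cell would not be seen. The table had 1 missing value, in no named probe set.

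Probe sets were named from the platform annotation: 16481 had 1 symbol and 793 had several, which were not used. By Entrez identifier 16394 matched the CriGri-PICRH-1.0 RefSeq table, the members included. No coordinates are given, since the build behind the array is not given in the sources used here.

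Each of the 29700 probe sets was fitted on group alone with limma 3.58.1 (lmFit, eBayes, R 4.3.3), with two-sided tests and Benjamini-Hochberg adjustment over all of them. The fit was tested on simulated data. A listed gene with several probe sets was read at the one with the highest mean. The text names the members, measured genes of the lists, the nearest neighbours of each member and the 2 genes most like each riser. Members and lists were chosen with earlier results of these data known. Alternatives were quantile normalization, probe sets above the median level only, an intensity trend with a robust prior, the replicate number as a block, the smallest p per gene, and each culture left out. With 3 arrays a group, precision is limited by their number.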

Additional observations from a re-analysis of the deposited data

How the results depend on the processing

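Mtap, Apip and Got1 passed the threshold, and Mri1 and Enoph1 did not, in each of the 10 alternatives run. Adi1 passed in 3: adjusted p = 0.0352 over probe sets above the median level, 0.0387 with an intensity trend and robust prior, and 0.0357 without no-putrescine replicate 1 (0.0352 to 0.221 over all 10). The cause was not tested. The first of these refitted fewer probe sets, so both the fit and the adjustment differed there. The 3 members higher and 0 lower were 3 or 4 higher and 0 lower throughout. Of the 36 genes measured in the surrounding lists, 6 rose and 7 fell, beside 15.8% and 14.2% of all named genes. In the refit over probe sets above the median level, 11 rose and 7 fell, beside 28.3% and 24.4% of the probe sets there. Their shares in the main fit were 23.3% and 19.8%. With an intensity trend 11 rose and 8 fell, beside 14.7% and 12.5% of all probe sets, against 13.2% and 11.2% in the main fit. Of the 36 surrounding genes 27 kept their side of the threshold in every alternative, 3 lost a call in some and 6 gained one. The replicate numbers did not pair the cultures: deviations of same-numbered arrays correlated at 0.0452, -0.101 and -0.0204. With the replicate number as a block, 3 members rose and 0 fell, the surrounding genes that rose numbered 5 and those that fell 6, and the array counts were 3457 higher and 2951 lower, against 3915 and 3325. With 1 culture left out the array counts were 3116 to 3376 higher and 2685 to 2892 lower.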

Other observations

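The genes next to the salvage genes on the CriGri-PICRH-1.0 assembly were read in the same fit. Of 13 listed neighbours 9 were measured: 2 rose, 1 fell and 6 did not pass. Among all named genes 15.8% rose and 14.2% fell, so these few calls are near the background. Pdhx, a subunit gene of the pyruvate dehydrogenase complex and a neighbour of Apip, rose by 0.58 (SE 0.10, limma adjusted p = 0.00333). Its log2 intensities were 7.17, 7.17 and 7.39 with putrescine and 7.89, 7.69 and 7.90 without, with no overlap. Ehf, on the other side of Apip, was at 3.14 with putrescine and did not pass.

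Hnrnpdl, an RNA-binding protein gene beside Enoph1, rose by 0.51 (SE 0.10, limma adjusted p = 0.00619), while Enoph1 itself did not pass. Ccdc130, beside Mri1, fell by 0.41 (SE 0.08, limma adjusted p = 0.00583). C3H19orf53 overlaps Mri1 in the annotation and had a log2 difference of 0.16. Both measured neighbours of Adi1 did not pass, with -0.01 for Rnaseh1 and 0.19 for Trappc12. The positions of the array's probes were not used, so signal shared between overlapping genes was not tested.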
